A study of Mus musculus with 12 samples.

Results

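The genes described here encode the respiratory chain and ATP synthase, the 5 enzyme complexes of the inner mitochondrial membrane, in mouse ILC2s (type 2 innate lymphocytes, which make cytokines such as IL-5 and IL-13 but carry no T or B cell receptor). Members were chosen by name: protein-coding genes whose symbols start with Nduf, Uqcr, Cox4 to Cox8, Atp5 or Sdh, and the protein-coding genes of mitochondrial DNA. The rule found 111 genes of the 29542 in the files, 98 in the nucleus and 13 in mitochondrial DNA. Of the nuclear genes, 85 are subunits (38 named for complex I, 4 for II, 8 for III, 18 for IV and 17 for V), and 13 are assembly factors that share a prefix but are not part of the finished enzyme. The low-count filter was passed by 104 members, all 13 mitochondrial ones among them. The 7 that did not pass were Ndufa4l2, Cox4i2, Cox6a2, Cox7b2, Cox8b, Cox8c and a second Atp5o gene model (ENSMUSG00000116933).

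RNA was sequenced from ILC2s sorted from skin-draining lymph nodes of mixed bone marrow chimeras. CD45.1 congenic recipients had received 950 cGy and then donor marrow, 1 part from CD45.2 Rag1-/- mice, whose cells carry CD90.2, and 1 part from CD90.1 WT mice, all described as C57BL6. To expand ILC2s, all mice had been given the cytokine IL-33 on 7 days, at 30 ng in each cheek and 240 ng into the peritoneum. Each donor genotype, WT or knockout-labelled, was sampled 8 and 20 weeks after transplant with 3 libraries at each time, 12 in all.

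The later time differs between the series text and the sample labels, and the labels' 20 weeks are used. Nothing in the labels ties the 3 libraries of a group to different mice, so the p-values rest on a spread between libraries that may be technical. Each recipient carried marrow of both genotypes, and the labels do not say whether WT and knockout-labelled libraries of a time share mice. The 6 libraries of a time may therefore not be independent, although the tests and SDs treat them so. Harvest and sequencing dates are absent from the labels, and an effect of batch on the time comparison cannot be told apart from one of time. The genotype label names Rag1, whose estimated count was 0 for each of the 6 WT libraries. For 5 of the 6 knockout-labelled libraries it was 10.8 to 18.4, so the reads fell on the knockout-labelled side. Whether the knockout allele leaves a transcript was not tested, so these counts do not settle whether the label is right. The groups are therefore called knockout-labelled throughout. Thy1, which encodes CD90, did separate the libraries by label, at 2.96 to 5.70 CPM in WT and 16.77 to 37.77 CPM in knockout-labelled ones (log2 fold change 2.63, adjusted p = 0.000463). The ILC2 genes Gata3 (554.3 to 1357 CPM, a library's reads scaled by its total and TMM factor) and Il1rl1 (167.4 to 335.6 CPM) were present in every library. Of T cell markers, Cd3e was at 3.75 CPM or less and Trac at 4.02 CPM or less, while the receptor constant segments Trbc1 and Trbc2 reached 480.8 and 510.0 CPM. WT at 8 weeks replicate 2 and knockout-labelled at 8 weeks replicate 3 stood apart from the rest on the first and second principal components, and the latter had 24.53% of its reads on its 10 most abundant genes, against 8.85% to 15.03% elsewhere. Total estimated reads were 11433625 to 32529806 per library.

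Complexes I and II take electrons from NADH and from succinate, complex III passes them to cytochrome c, and complex IV hands them to oxygen. Complexes I, III and IV pump protons as they do so, and complex V uses the returning protons to make ATP. Complex II is built from nuclear genes alone, while the other complexes join nuclear subunits, made on cytosolic ribosomes and imported, to a core of subunits made inside the organelle from mitochondrial DNA.

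The mitochondrial genes need a look at sequence first, because long stretches of mitochondrial DNA also exist as near-identical copies in nuclear chromosomes. A block of 7 annotated pseudogenes at chr1:24611535-24616197 (GRCm38) holds copies of mt-Nd4l, mt-Nd3, mt-Co3, mt-Atp6 and mt-Co2 and of parts of mt-Nd4 and mt-Co1. The copies of mt-Atp6 (Gm10925), mt-Co2 (Gm28661) and mt-Co3 (Gm28437) had 0 differences from the mitochondrial gene over 678, 681 and 783 aligned bases. The first 60 bases of mt-Atp6, chrM:7927-7986, and of its chromosome 1 copy show what the counting had to separate.
mt-Atp6: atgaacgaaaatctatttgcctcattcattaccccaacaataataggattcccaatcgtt
Gm10925: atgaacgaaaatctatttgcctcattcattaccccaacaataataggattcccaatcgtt
The copy of mt-Nd3, Gm28438, differed at a single base of 345, T3C, counted from 1 at the first base of mt-Nd3 and shown here in capitals.
mt-Nd3: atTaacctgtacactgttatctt
Gm28438: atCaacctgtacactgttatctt
A copy of mt-Co1 on chromosome 2, Gm13340, differed at 37 of 1545 bases, and bases 460 to 519 of the gene (chrM:5787-5846) hold 4 of those differences, in capitals.
mt-Co1: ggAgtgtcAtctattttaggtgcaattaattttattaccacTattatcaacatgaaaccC
Gm13340: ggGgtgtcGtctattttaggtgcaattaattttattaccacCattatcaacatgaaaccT

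The deposited estimates divided reads between these genes and their copies. Over the 12 libraries, 94.3% of the reads given to mt-Atp6 or Gm10925 were placed on the copy, with a range of 93.0% to 95.8% by library. The copies of mt-Co3 and mt-Co2 held 90.1% (86.7% to 92.0% by library) and 89.0% (85.7% to 99.6%) in the same way. The copy of part of mt-Co1, Gm29216, held 32.1%, with a wider range of 18.8% to 55.1% by library. Gm13340, which can be told from mt-Co1 by its differing bases, held 0.1%. For mt-Nd3 the share on the copy ran from 10.7% to 100.0% of reads by library, so its own value depends on how reads were divided. A read from an identical stretch cannot be placed by sequence, so values between the times are also given with the copies added. The other 6 mitochondrial genes (mt-Nd1, mt-Nd2, mt-Nd5, mt-Nd6, mt-Cytb and mt-Atp8) shared under 30% of their 20-base words with any other gene, mt-Nd1 0%.

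**Figure D1:**
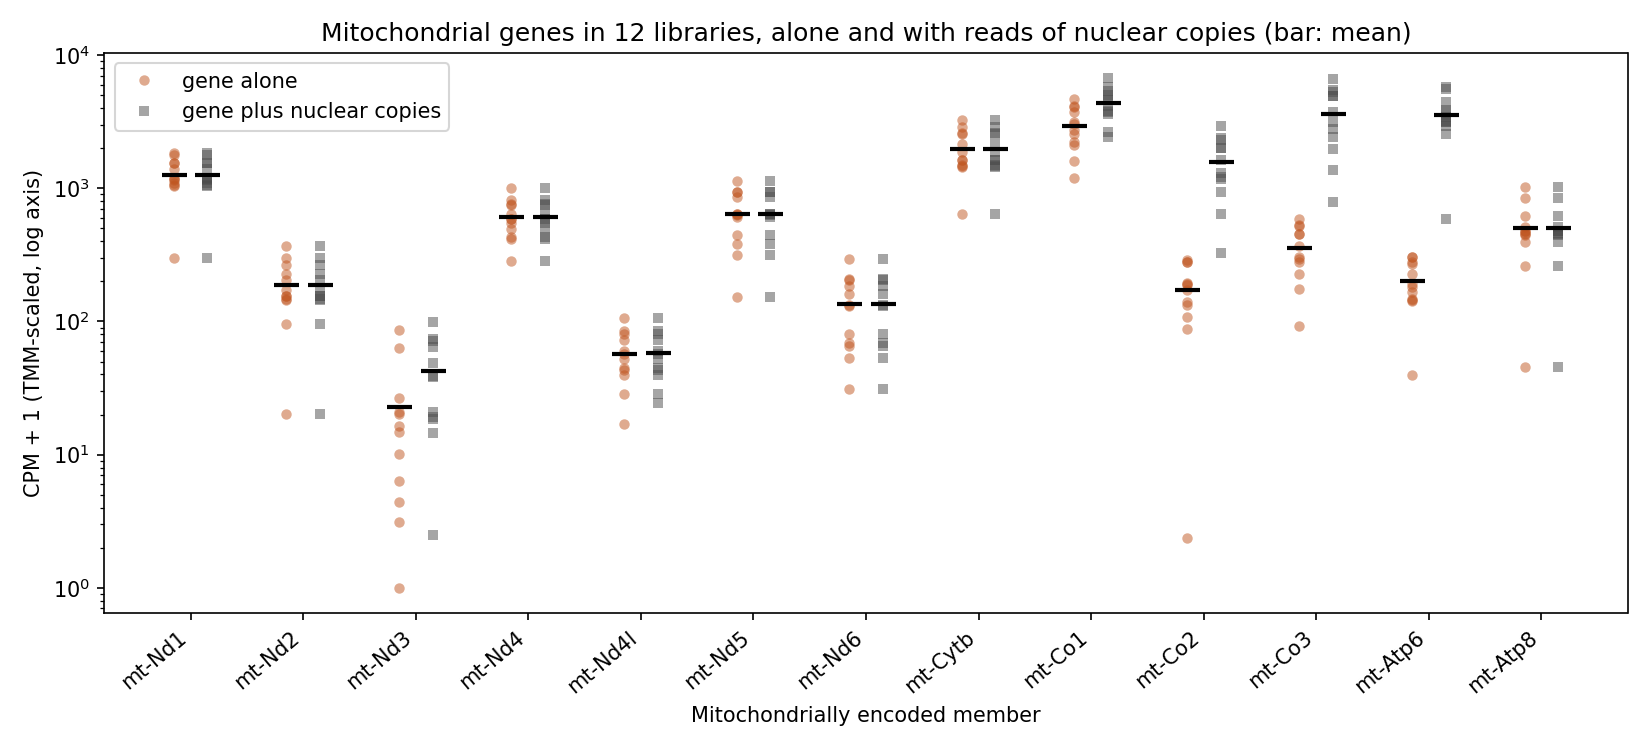
TMM-scaled CPM plus 1 on a log axis for each mitochondrially encoded member in the 12 libraries, for the gene alone (circles) and with the reads of nuclear copies added (squares); bars are means. Adding copies lifts mt-Co2, mt-Co3 and mt-Atp6 most, while mt-Nd1, mt-Cytb and the other genes without such copies do not move.

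Levels per length, as TPM (abundance scaled for transcript length and library sum), placed mt-Atp8 (mean 3459.5, range 267.86 to 6901.7 over 12 libraries), mt-Co1 (2471.3), mt-Cytb (2229.8) and mt-Nd1 (1706.3) above every nuclear member in mean. The mt-Atp8 and mt-Atp6 genes lie on a shared RNA and overlap by 43 bases at chrM:7927-7969, printed here with the start codon of mt-Atp6 in capitals.
mt-Atp8 and mt-Atp6: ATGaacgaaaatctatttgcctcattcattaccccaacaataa
Although both subunits of complex V come from that RNA, mt-Atp6 alone had a mean of 385.1 TPM, and its copy Gm10925 had 6463 TPM. The copies of mt-Co3 (Gm28437) and mt-Co2 (Gm28661) had 5494 and 2710 TPM. The order of the mitochondrial genes by TPM thus depends on how reads were divided. mt-Nd3 had the lowest mean of the 13 at 84.4 TPM and was listed at 0 in WT at 8 weeks replicate 2.

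Among nuclear members, Cox4i1, the regulatory subunit of complex IV that binds first in its assembly, was the most abundant at 1468.3 TPM (821.35 to 1789.7). The highest mean of each of the other complexes was 794 TPM for Ndufa3 (I), 475.9 TPM for Sdhb (II), 639.9 TPM for Uqcrq (III) and 800.7 TPM for Atp5e (V). The lowest tested subunits were Ndufb4 (10.4 TPM), Sdhc (139.8 TPM), Uqcrfs1 (14.5 TPM), Cox7a1 (3.27 TPM) and Atp5l (91.4 TPM). Uqcrfs1 is the Rieske iron-sulfur protein, a catalytic subunit of complex III, and the other 7 genes of that complex lay between 201.2 and 639.9 TPM. Ndufb4 and Atp5l share 32.2% and 55.2% of their 20-base words with copies that had higher levels, Ndufb4c (189 TPM) and Gm10221 (695 TPM). Ndufa11 and Atp5g2 also lay below their copies Ndufa11b (108 TPM against 46.3) and Gm10175 (262 TPM against 209.7).

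Where a subunit has tissue forms, the widely expressed form made up nearly all of the signal. Cox6a1 had 470.0 TPM against 0.035 for Cox6a2, the heart and muscle form, and Cox4i1 exceeded Cox4i2 (0.15 TPM) in the same way. Cox8a had 381.3 TPM, with Cox8b at 0 and Cox8c at 0.021. Cox6b1 had 452.1 TPM and Cox6b2, known from testis, 7.35. Cox7a2 had 251.8 TPM against 3.27 for Cox7a1. The related gene Cox7a2l, counted here with the complex IV subunits by its name, had 306.7 TPM. Cox7b stood at 476.7 TPM with Cox7b2 at 0.12, and Ndufa4 at 580.6 with Ndufa4l2 at 0. The 3 genes for the ring subunit of ATP synthase, which encode the same mature protein, were closer together, at 331.1 TPM for Atp5g3, 209.7 for Atp5g2 and 145.3 for Atp5g1.

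In mean, the summed nuclear members were lower and the summed mitochondrial members higher at 20 weeks, the latter with more spread. Nuclear members summed to 13720 to 18520 CPM at 8 weeks, mean 17070 ± 1798 (SD, n = 6), and to 12330 to 14320 CPM at 20 weeks, mean 13320 ± 813.0 (SD, n = 6). Mitochondrial members summed to 2811 to 12680 CPM at 8 weeks, mean 7459 ± 3394 (SD, n = 6), and to 7921 to 14900 CPM at 20 weeks, mean 10610 ± 2746 (SD, n = 6). The nuclear sums overlapped through a single 8-week library, knockout-labelled replicate 3, and the mitochondrial sums through WT replicate 3 and knockout-labelled replicate 1 of 8 weeks.

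**Figure D2:**
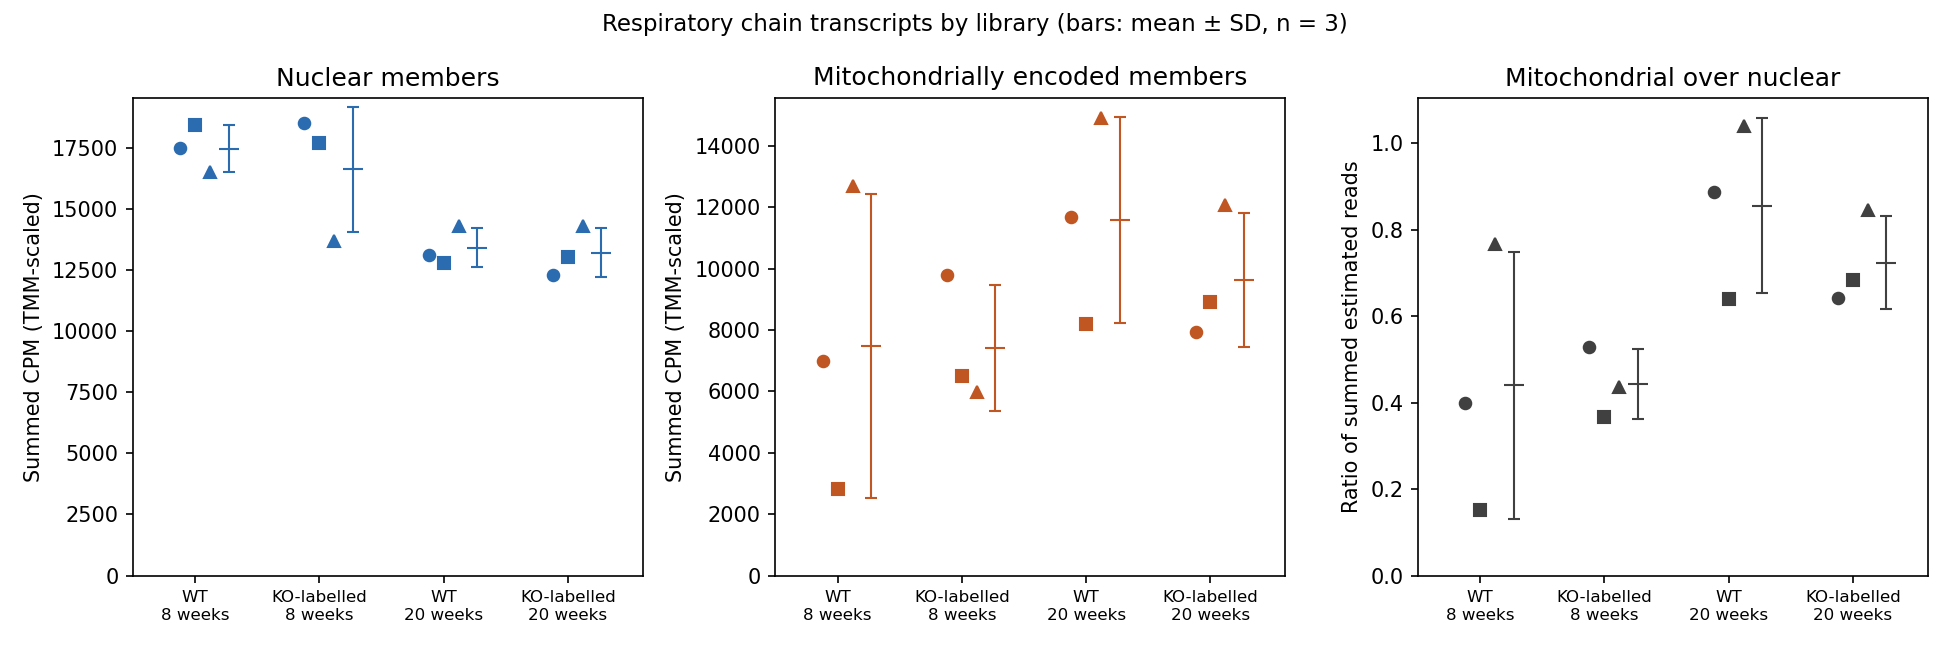
Summed TMM-scaled CPM of the nuclear members (left) and of the mitochondrially encoded members (middle), and the ratio of their summed estimated reads (right), in each library of the 4 groups; symbols mark replicates 1 (circle), 2 (square) and 3 (triangle), bars the mean ± SD (n = 3). The nuclear sum is 14320 CPM or less in every 20-week library and the ratio is 0.640 or more in each of them, while the 8-week ratios run from 0.152 to 0.768.

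The ratio of mitochondrial to nuclear reads was 0.400, 0.152 and 0.768 in the WT libraries of 8 weeks and 0.528, 0.367 and 0.437 in the knockout-labelled ones. At 20 weeks it was 0.887, 0.640 and 1.04 in WT and 0.642, 0.684 and 0.846 in knockout-labelled libraries. Every 20-week library was above 5 of the 6 libraries of 8 weeks, the exception being WT at 8 weeks replicate 3. The mean log2 ratio was 0.97 higher at 20 weeks, with an SD of 0.64 between replicates, and 0.65 higher without the 2 libraries that stood apart. Since the ratio is a score over chosen members, no p is given. With the copies added the ratio was 0.885 ± 0.407 at 8 weeks and 1.56 ± 0.342 at 20 weeks (SD, n = 6 each), a log2 difference of 0.94. Within a bulk sample, fewer organelles or cells and less RNA per organelle or cell cannot be told apart.

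Averaged over both genotypes, 10 of 104 members passed the edgeR test between the times (adjusted p under 0.05 over 14431 genes), all of them nuclear and all lower at 20 weeks. That is 9.62% of the members tested, against 2.9% of all genes called and 1.93% called lower. Of the 91 nuclear members tested, 79 lay below 0 on the log2 scale with a median of -0.33, while all 13 mitochondrial ones lay above 0 with a median of 0.52; the median of all genes was 0.02, and 47.9% of them lay below 0. With thread number as a covariate these medians were -0.34 and 0.32, and in the knockout-labelled libraries alone the mitochondrial median then went from 0.43 to -0.21. The 6 libraries of each time did not overlap for 15 nuclear members, all lower at 20 weeks, and for no mitochondrial one; among all genes 2.47% were lower and 1.62% higher in this way.

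By complex, the nuclear medians were -0.49 for I (5 of 37 fell), -0.31 for II (1 of 4), -0.29 for III (1 of 8), -0.26 for IV (2 of 13) and -0.37 for V (1 of 16), and -0.16 for the assembly factors, none of whose 13 genes passed. The mitochondrial medians were 0.59 for complex I (7 genes), 0.42 for III (mt-Cytb alone), 0.61 for IV (3 genes) and 0.46 for V (2 genes). In each of the 4 complexes with both kinds of subunit, the medians of the nuclear and the mitochondrial genes had opposite signs. The mitochondrial genes tended to be high or low together by library, as given below, so the 4 complexes are not independent observations. With the copies added, the mitochondrial medians were 0.55 for I, 0.42 for III, 0.61 for IV and 0.44 for V. None of these medians was tested.

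**Figure D3:**
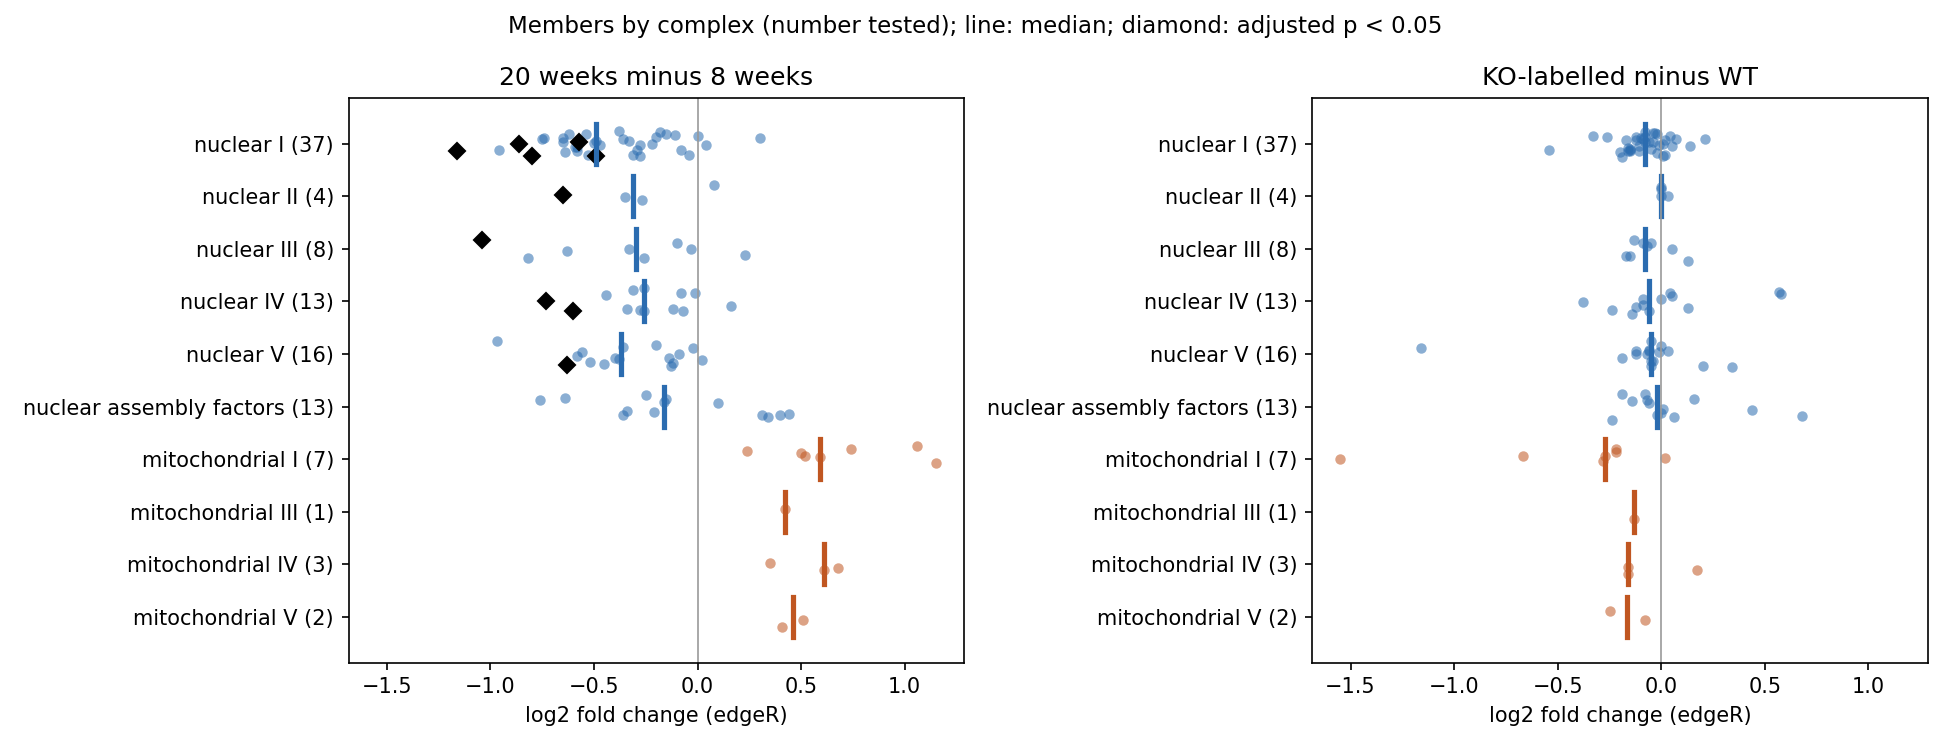
log2 fold change from edgeR of every tested member, 20 weeks minus 8 weeks averaged over genotypes (left) and knockout-labelled minus WT averaged over times (right), by complex and genome; each point is a gene, lines are medians and black diamonds the genes with an adjusted p under 0.05. Nuclear subunits lie mainly left of 0 and the 13 mitochondrial genes right of 0 between the times, and no gene is marked between genotypes.

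Complex I had the most members that fell. Gene positions are in GRCm38. Ndufab1 (chr7:122085403-122101886), the mitochondrial acyl carrier protein, which also serves fatty acid and lipoate synthesis, ran from 142.8 through a median of 215.4 to 382.7 CPM at 8 weeks and from 59.94 through 104.6 to 127.3 CPM at 20 weeks. It fell by 1.16 on the log2 scale (SE 0.26, adjusted p = 0.0386), and its 8-week values were the most spread of the 10 genes. Ndufa1 (chrX:37187588-37191163), a small membrane-arm subunit, had 148.6, 184.3 and 350.8 CPM as lowest, median and highest at 8 weeks and 94.05, 106.4 and 138.2 at 20 weeks, and fell by 0.86 (SE 0.20, adjusted p = 0.0439). The highest value of both genes was in WT at 8 weeks replicate 2, and neither overlapped between the times. Ndufc1 (chr3:51404677-51408988) fell by 0.80 (SE 0.17, adjusted p = 0.032), Ndufb11 (chrX:20615326-20617619) by 0.57 (SE 0.12, adjusted p = 0.036) and Ndufb9 (chr15:58933756-58939488) by 0.49 (SE 0.11, adjusted p = 0.0386), all accessory subunits of the membrane arm. Ndufb9 was the tightest of these, at 178.9 to 229.0 CPM at 8 weeks and 131.9 to 159.0 CPM at 20 weeks. Of the core subunits that carry the flavin and iron-sulfur clusters, Ndufv1 had a log2 fold change of -0.59 (adjusted p = 0.0609) and Ndufs1 of 0.04 (adjusted p = 0.914), and neither passed.

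In complex II, Sdhb (chr4:140961203-140979193), the iron-sulfur subunit of succinate dehydrogenase, had 559.4, 645.7 and 417.7 CPM in WT at 8 weeks and 466.5, 533.5 and 523.5 CPM in the knockout-labelled replicates. At 20 weeks it had 321.8, 324.4 and 324.1 CPM in WT and 372.1, 327.4 and 335.3 CPM in knockout-labelled libraries. The times did not overlap, and Sdhb fell by 0.65 on the log2 scale (SE 0.13, adjusted p = 0.0247). The flavoprotein Sdha, which binds succinate, was at -0.35 (adjusted p = 0.152), and the membrane anchors Sdhd and Sdhc were at -0.27 (adjusted p = 0.266) and 0.08 (adjusted p = 0.803).

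In complex III, Uqcrq (chr11:53427922-53430831), a small subunit that packs against cytochrome b, had the smallest p of all members. Its CPM was 248.1, 418.4 and 195.1 in WT and 234.5, 273.7 and 248.5 in knockout-labelled libraries of 8 weeks. At 20 weeks it was 115.8, 122.6 and 153.8 in WT and 125.4, 123.4 and 146.4 in knockout-labelled libraries. All 6 values of 20 weeks were below all 6 of 8 weeks, and Uqcrq fell by 1.04 on the log2 scale (SE 0.18, adjusted p = 0.0152). Uqcr10, which lies beside the Rieske protein, was at -0.82 but did not pass (adjusted p = 0.0706). The core proteins Uqcrc1 and Uqcrc2 were at -0.26 and -0.03, Uqcrfs1 at -0.33 and the hinge protein Uqcrh at 0.23, none of them past the threshold.

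In complexes IV and V 3 genes fell. Cox7b (chrX:106015700-106022450) had 155.8 to 226.2 CPM at 8 weeks and 96.85 to 133.4 CPM at 20 weeks, without overlap, and fell by 0.73 (SE 0.13, adjusted p = 0.019). Cox7a2 (chr9:79755361-79759878) had 142.8 to 188.9 and 91.22 to 152.0 CPM, overlapping through knockout-labelled at 8 weeks replicate 3, and fell by 0.60 (SE 0.14, adjusted p = 0.0427). Cox4i1, Cox5a and Cox5b were at -0.28, 0.16 and -0.12, with adjusted p of 0.45 or more. Atp5o (chr16:91925214-91931687), the subunit that ties the catalytic head of ATP synthase to its stator, had 406.8 to 507.9 CPM at 8 weeks and 257.5 to 317.9 CPM at 20 weeks, and fell by 0.63 (SE 0.11, adjusted p = 0.0187). The catalytic subunits of the head, Atp5a1 and Atp5b, were at -0.14 (SE 0.13) and 0.02 (SE 0.22). Of assembly factors, Ndufaf3 was at -0.76 and just missed the threshold (adjusted p = 0.0525).

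**Figure D4:**
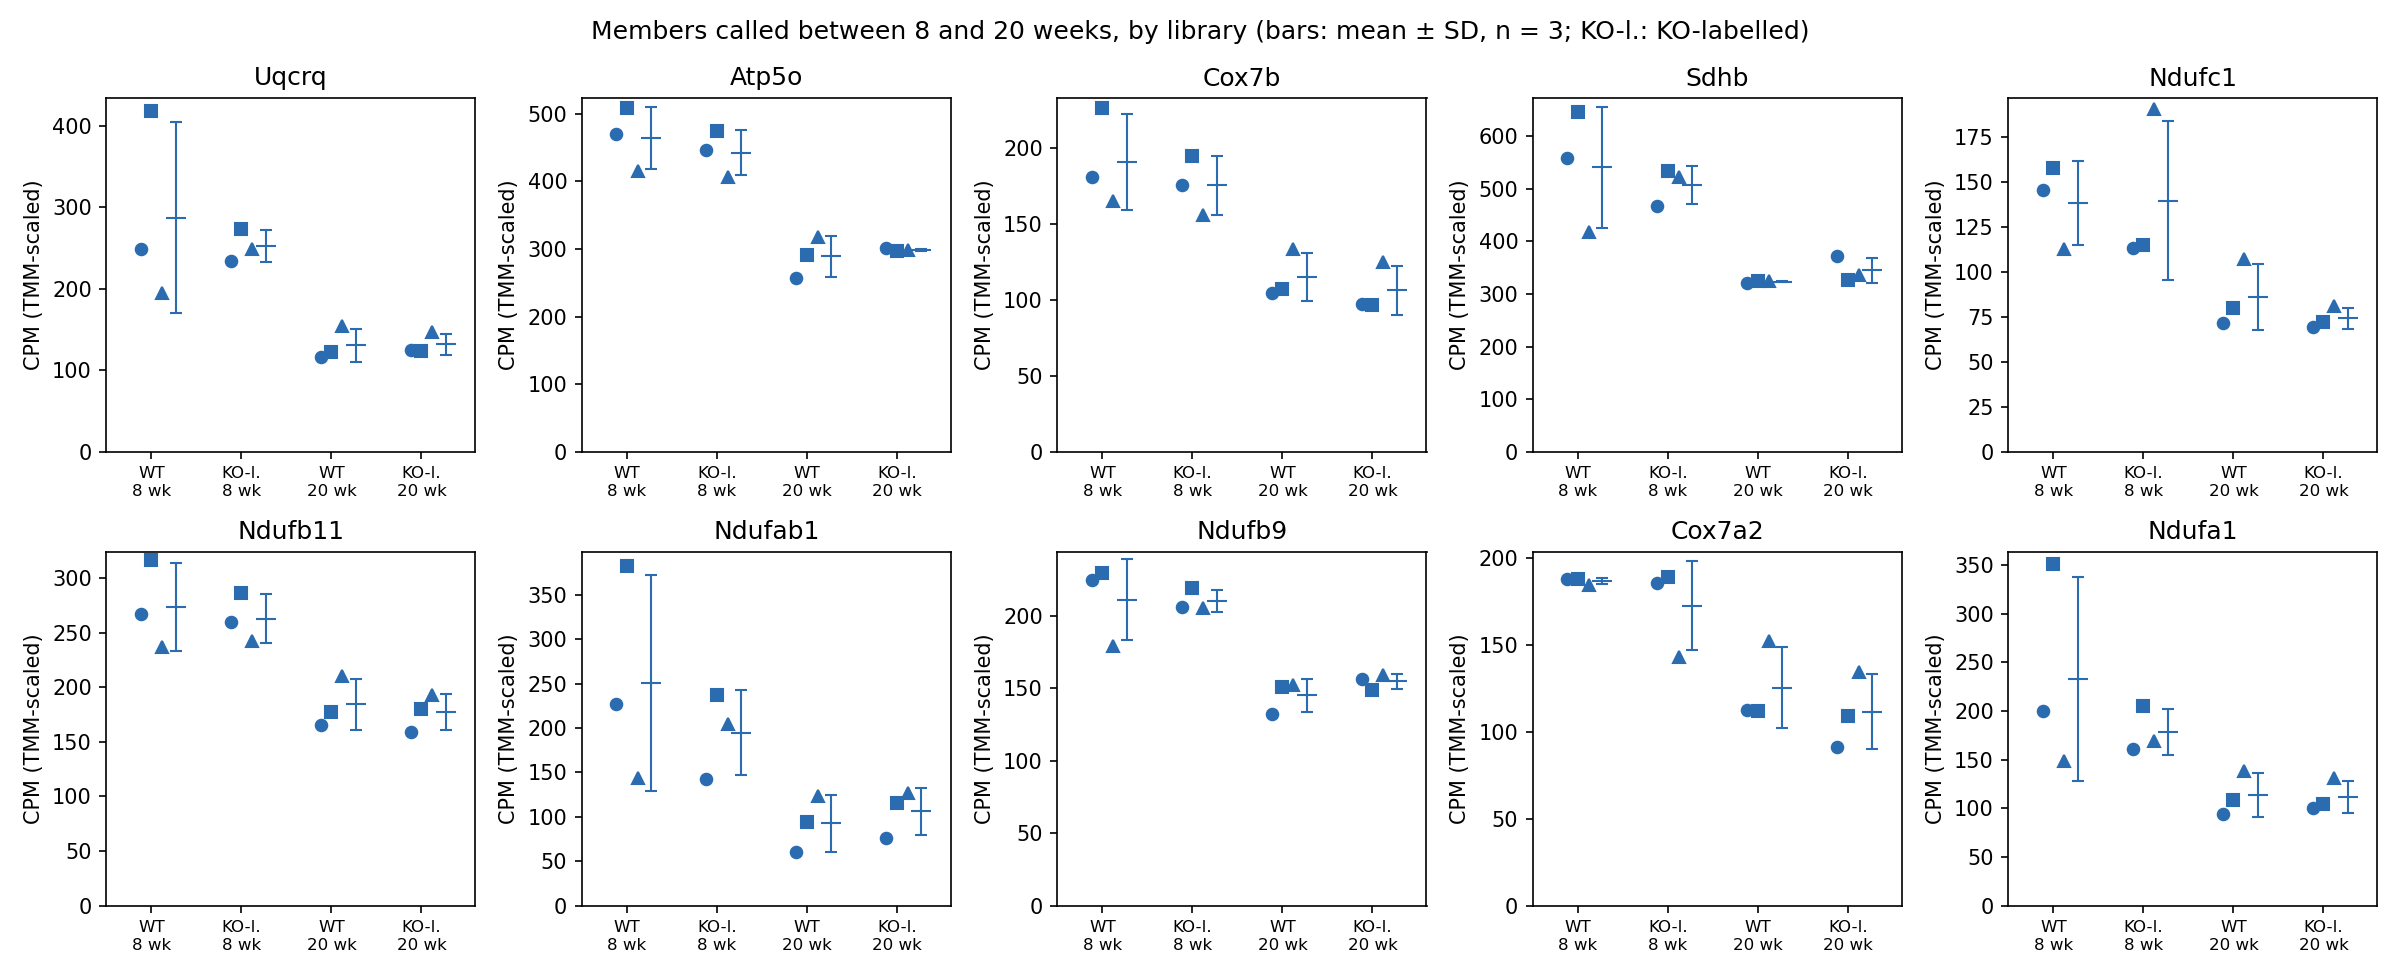
TMM-scaled CPM by library for the 10 nuclear members with an adjusted p under 0.05 between 8 and 20 weeks, in order of adjusted p; symbols mark replicates 1 (circle), 2 (square) and 3 (triangle), bars the mean ± SD (n = 3). Both genotypes are lower at 20 weeks in each panel, and only Cox7a2 overlaps between the times.

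Of the mitochondrial genes, none passed between the times in edgeR or limma-voom, DESeq2 called mt-Nd6 alone (log2 fold change 1.14, adjusted p = 0.0167), and in edgeR 2 had an unadjusted p under 0.05 (18.6% of all genes did). mt-Nd6 (chrM:13552-14070), a membrane subunit of complex I and the single protein encoded on the light strand, had 67.61, 30.33 and 202.4 CPM at 8 weeks in WT, and 79.20, 52.06 and 64.26 CPM in the knockout-labelled replicates. At 20 weeks it had 209.0, 184.9 and 295.6 CPM in WT and 130.5, 159.0 and 131.1 CPM in knockout-labelled libraries. The times overlapped through WT at 8 weeks replicate 3 alone, and mt-Nd6 was at 1.15 on the log2 scale (SE 0.35, adjusted p = 0.103). The strand of the libraries is not stated, so reads of mt-Nd6 cannot be told from RNA of the opposite strand, and its gene overlaps the end of mt-Nd5. mt-Co1, the catalytic subunit of complex IV that binds oxygen, had 1197 to 3751 CPM at 8 weeks and 2564 to 4682 CPM at 20 weeks (log2 fold change 0.61, SE 0.27, adjusted p = 0.254), and 0.41 with its copies added. Its partner mt-Co2 was at 0.68 alone and 0.61 with copies, and mt-Co3 at 0.35 and 0.67. mt-Atp6 was at 0.41 and 0.37, mt-Nd3 at 1.06 and 0.91, mt-Nd4l at 0.59 and 0.55, and mt-Nd4, whose copy had 0 reads, at 0.50 in both. None of these values passed, with or without copies. mt-Cytb was at 0.42 (SE 0.31), mt-Nd1 at 0.24 (SE 0.33) and mt-Atp8 at 0.51 (SE 0.48). The median SE was 0.35 for the mitochondrial genes and 0.17 for the nuclear ones, so a difference of equal size was harder to detect in the former.

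The extremes among 8-week libraries were in the WT group. WT at 8 weeks replicate 2 had the lowest value of the 12 libraries for all 13 mitochondrial genes, and its mt-Co2 was 1.383 CPM against 87.17 to 287.7 in the rest. The identical copy of mt-Co2, Gm28661, held 322.7 CPM in that library and 552.8 to 2642 CPM in the rest. The size of the drop in mt-Co2 alone thus depends on how reads were divided. Replicate 3 of the same group had the highest 8-week value of 12 of the 13 genes, mt-Co3 being the exception. Without replicate 3 the mitochondrial median between the times was 0.95, and without replicate 2 it was 0.35.

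Within each genotype no member passed in edgeR: 29 members in WT and 25 in knockout-labelled cells had an unadjusted p under 0.05, against 13.3% and 8.33% of all genes, and 0.513% and 0.0624% of all genes were called. DESeq2 called 12 and 4 members there, with 3.22% and 1.04% of all genes, and limma-voom 0. Uqcrq was at -1.14 in WT and -0.94 in knockout-labelled cells, Sdhb at -0.74 and -0.56, and mt-Nd6 at 1.20 and 1.10. The difference between these time courses was tested as the interaction: 0 members were called and 0 had an unadjusted p under 0.05 (background 0.097% and 2.18%), and the nuclear median was 0 and the mitochondrial one -0.27, with SEs too wide to show that the courses are alike.

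The count of 10 moved with the libraries and the settings. Without 1 library it was 1 (WT at 20 weeks replicate 1 or 2, knockout-labelled at 20 weeks replicate 1, WT at 8 weeks replicate 1, knockout-labelled at 8 weeks replicate 2), 0 (knockout-labelled at 20 weeks replicate 2), 2 (knockout-labelled at 20 weeks replicate 3), 5 (WT at 20 weeks replicate 3), 6 (knockout-labelled at 8 weeks replicate 1), 9 (WT at 8 weeks replicate 2), 25 (WT at 8 weeks replicate 3) and 21 (knockout-labelled at 8 weeks replicate 3). In the same fits 0.51% to 6.12% of all genes were called, the highest without WT at 8 weeks replicate 3, and the nuclear median lay between -0.38 and -0.30. The count was 28 (6.56% of all genes) without the 2 libraries that stood apart, and 0 with thread number (which the file headers give as 8 or 24, the latter in all 3 knockout-labelled libraries of 20 weeks) as a covariate (0.52% of all genes), with 46 members then at an unadjusted p under 0.05. In the 6 libraries of 8 threads, time in WT gave 0 calls and a nuclear median of -0.42. That contrast held only replicates 1 and 2 of WT at each time, among them WT at 8 weeks replicate 2, which stood apart. With so few libraries, 0 calls there show little.

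Between donor genotypes no member was called. Averaged over both times, edgeR, DESeq2 and limma-voom called 0 of 104 members, against 0.222% of all genes in edgeR, and 1 member had an unadjusted p under 0.05, as did 3.71% of all genes. The nuclear median was -0.06 (median SE 0.17), the mitochondrial median -0.22 (median SE 0.35) and that of all genes 0.01. At 8 weeks the mitochondrial median was -0.10, or 0.13 with thread number as a covariate, 0 members were called (background 0.201%) and 1 had an unadjusted p under 0.05 (background 3.62%), and at 20 weeks 0 and 0 (background 0.0554% and 2.08%). Averaged over both times, Sdha, Sdhb, Sdhc and Sdhd differed by 0.03 or less, with an SE of 0.14 or less. Within a time these 4 genes differed more, from -0.09 to 0.15 at 8 weeks and from -0.15 to 0.09 at 20 weeks (median SE 0.18 at each). At 20 weeks all 13 mitochondrial genes were below 0 (knockout-labelled minus WT), as were 51.4% of all genes, with a median of -0.30 and a median SE of 0.50, and the 2 groups did not overlap for mt-Nd6, Ndufb5, Uqcrc2, Atp5c1 and Atp5g1 (lower) and Sdhb (higher), while 6.08% of all genes were lower and 5.34% higher in that way.

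The member with the smallest p between genotypes was Atp5l, subunit g of the membrane part of ATP synthase. It had 33.76, 141.5 and 46.39 CPM at 8 weeks in WT, with 21.38, 34.99 and 25.61 CPM in the knockout-labelled replicates, and at 20 weeks 11.53, 20.11 and 62.07 against 10.89, 16.24 and 23.35 CPM. The log2 fold change was -1.16 (SE 0.44, unadjusted p = 0.021, adjusted p = 1). With the reads of its processed copies added, most of them on the more abundant Gm10221, it was -0.23. Gm10221 had 255.8 CPM in WT and 248.7 CPM in knockout-labelled libraries in mean at 8 weeks, and 203.9 and 187.3 CPM at 20 weeks. How reads were divided between Atp5l and its copies was not tested. The next smallest were Ndufa12 at -0.33 (SE 0.16) and Ndufb4 at -0.54 (SE 0.27), the latter at -0.07 with Ndufb4c added, then mt-Nd6 at -0.67 (SE 0.35) and Cox5a at 0.57 (SE 0.30).

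Other genes of the organelle gave counts to read beside these. Over all genes, 1.93% were called lower at 20 weeks, 10.5% were lower at an unadjusted p under 0.05 and 8.1% higher. Of 78 mitochondrial ribosomal proteins tested, which build the machine that translates the mitochondrial genes, 6 fell at 20 weeks and the median was -0.23. Of 88 cytosolic ribosomal proteins 0 passed, 6 had an unadjusted p under 0.05, all lower, and the median was -0.05. One gene fell in each of 5 further lists: Coa3 (-0.92, adjusted p = 0.0103), an assembly factor of complex IV, among 33 assembly factors outside the name rule; Mdh2 (-0.64), malate dehydrogenase of the TCA cycle, among 18; Coq7 (-0.66), of ubiquinone synthesis, among 13 carrier genes; Phb (-0.80), prohibitin of the inner membrane, among 20 import and cristae genes; and Cdk5rap1 (-1.00), which modifies mitochondrial tRNAs, among 19 genes of mitochondrial RNA processing. For Cdk5rap1 the value averages unlike courses. It was at -2.31 in WT (adjusted p = 0.00378), was not called in knockout-labelled cells, and had an interaction of 2.63 (adjusted p = 0.0447). At 8 weeks Cdk5rap1 was also lower in knockout-labelled than in WT cells (-2.48, adjusted p = 0.00464). Of 17 genes for transcription and replication of mitochondrial DNA 0 passed (3 lower at an unadjusted p under 0.05), with Tfam, which packages that DNA, at 58.23 ± 12.43 CPM at 8 weeks and 60.89 ± 5.492 CPM at 20 weeks (SD, n = 6). Of 13 regulators of mitochondrial biogenesis 0 passed, 1 was higher at an unadjusted p under 0.05 and the median was 0.22. Ppargc1a, the coactivator known for driving biogenesis in muscle and fat, was at 1.01 CPM or less in every library.

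Measures of the libraries that moved with time stand beside these results. B cell markers (10 of 12 tested) summed to 176.5 to 604.0 CPM at 8 weeks and 167.4 to 323.0 CPM at 20 weeks with 1 called lower, Cd79b (-0.77), while Pax5 was at 0.63 CPM or less. At an unadjusted p under 0.05, 4 of the 10 were lower averaged over genotypes (10.5% of all genes were). In knockout-labelled cells 8 were lower (8.33% of all genes passed in either direction), with a median of -2.22. In WT 1 was lower and 1 higher (13.3%), with a median of 0.53. For the interaction 5 were below 0 at that threshold (2.18%). NK cell and ILC1 markers summed to 73.31 to 249.4 and 47.51 to 76.13 CPM, with Ncr1 at 1.23 CPM or less and 0 called in edgeR (1 of 6 lower at an unadjusted p under 0.05). Gzma, a granule protease, made up 225.8 CPM of that sum in WT and in knockout-labelled at 8 weeks replicate 3, and was at 32.37 to 81.22 CPM in the other libraries. Of 17 ILC2 genes tested, the cytokine genes Il13 (-0.98) and Areg (-1.57) fell and none rose; 11 were above 0, 3 of them higher at an unadjusted p under 0.05, the median was 0.08 and the list summed to 7323 ± 857.3 CPM at 8 weeks and 8445 ± 474.2 CPM at 20 weeks (SD, n = 6). Short transcripts had lower values at 20 weeks: the median log2 fold change was -0.10 for 1836 genes of 500 to 1000 bases and 0.13 for 2254 genes above 4000. Nuclear members in those shorter ranges had medians of -0.49 (17 genes up to 500 bases, where all genes had -0.08) and -0.31 (47 genes of 500 to 1000). With the length trend removed, 11 members were called and the nuclear median was -0.27. The part of the cell type markers in the result was not tested.

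Promoter sequence, which the name rule did not use, was searched for motifs of 4 factors. RefSeq promoter windows (GRCm38.p6, 250 bases before to 50 after the start) matched 78 of the 97 nuclear symbols, with 83 windows. The NRF1 motif, read on both strands, was in 26.5% of these windows, in 9.7% of the windows of genes tested and in 4.6% of all 32851 windows. The ETS motif CCGGAAG was in 25.3%, 17.2% and 8.9%, the YY1 motif AAGATGG in 13.3%, 7.0% and 6.3%, and the ERR motif AAGGTCA in 9.6%, 3.3% and 4.7%. These factors are known regulators of nuclear respiratory genes, and a match is a description of the letters only. One stretch for each complex with a match before the start, from the first symbol in order, is printed with the NRF1 motif in capitals: chr17:56717687-56717726 (+ strand), chr13:74350314-74350353 (-), chr5:115349096-115349135 (-) and chr15:102671065-102671104 (-).
Ndufa11: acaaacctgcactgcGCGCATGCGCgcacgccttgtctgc
Sdha: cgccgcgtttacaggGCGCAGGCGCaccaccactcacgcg
Cox6a1: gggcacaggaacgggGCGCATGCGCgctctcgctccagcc
Atp5g2: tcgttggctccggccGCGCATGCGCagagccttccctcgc
Of the 10 genes that fell, 8 had a window, and 1 of these held the NRF1 motif, 1 the ETS motif, 1 the YY1 motif and 0 the ERR motif. The 4 printed genes were at -0.62, -0.35, -0.08 and -0.13 between the times, none of them called, with Ndufa11 just outside the threshold (adjusted p = 0.0548). Nrf1 itself had 99.84 ± 10.54 CPM at 8 weeks and 88.33 ± 10.78 CPM at 20 weeks (SD, n = 6).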

How the data were processed

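The deposited files, 1 per library, hold estimated counts and TPM per transcript, which the authors made with sailfish 0.6.3 per the file headers, matching 20-base words rather than aligning reads. Other tools in the submitters' processing notes (featureCounts 1.4.5, STAR 2.0.4b, Subread, bcl2fastq) have no stated role in them. The labels give polyA RNA, but their protocol has ribosomal RNA depleted and cDNA primed at random; strand is not stated. Estimated counts were summed per gene (83739 of 86127 transcripts matched GENCODE M21, GRCm38; 1.01% to 1.54% of reads did not), rounded, filtered with filterByExpr and fitted over 14431 genes with edgeR 4.0.16 (quasi-likelihood, TMM factors 0.76 to 1.11, 4 group means, 8 residual degrees of freedom, Benjamini-Hochberg adjustment) in R 4.3.3; 7 contrasts were tested. limma 3.58.1 (voom), DESeq2 1.42.0 and other settings were alternatives, and the fit was tested on simulated data. The simulated libraries had less spread than these data (common biological coefficient of variation 0.377). The simulation therefore does not show the power or error rate that apply here. Copies are genes holding 30% or more of a member's 20-base words. Named genes were all mitochondrial members, every nuclear member called in any contrast, the 2 of smallest p in each complex and among assembly factors between times and between genotypes, listed core subunits and isoform pairs, the most and least abundant of each complex, untested members and called genes of the other lists; others named for not overlapping, for copies or for promoter motifs were chosen after their values were seen. Members and lists were chosen with earlier results of these data known. A value for 1 listed core subunit is not reported here.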

Additional observations from a re-analysis of the deposited data

How the results depend on the processing

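Between the times the 10 calls became 34 with DESeq2 (33 lower, and mt-Nd6 higher; 8.5% of all genes were called), 5 from counts made of the deposited TPM (1.9%), 0 with thread number as a covariate (0.52%), 28 without both libraries that stood apart (6.56%) and 18 when the length trend was removed as well (4.97%); leaving out 1 library gave 0 to 25 (0.51% to 6.12%). For time in WT the 0 calls became 12 with DESeq2 and 0 to 10 with 1 library left out, and in knockout-labelled cells 4 with DESeq2. With replicate number as a covariate, 7 members were called between the times (2.3% of all genes), without Cox7a2, Ndufa1 and Ndufb9, and 0 within either genotype. That covariate joins the same number at 8 and 20 weeks, so it does not show what pairing within a time would do. The genotype contrasts and the interaction were blocked by number within each time and gave 0 calls. Same-numbered libraries of a time correlated at 0.11 to 0.23 at 8 weeks and 0.07 to 0.12 at 20 weeks. Each library correlated best with its own number. No label ties them to 1 animal, so the main fit did not take the numbers as pairs, but pairing is not excluded. Genotype contrasts and the interaction gave 0 under each alternative run. Of 1786 values of named genes under alternatives, 1663 stayed on the same side of the threshold, 101 lost the call, 22 gained it and 0 were counted as reversed. Some mitochondrial medians did change sign with thread number as a covariate, as given above. The copy and length settings were chosen after seeing the data. The cause of these shifts was not tested.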
